A study of Mus musculus with 6 samples.

Results

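The histone mark H3K27ac was described at 7 genes that buffer energy and oxygen in muscle, namely Ckm, Ckmt2, Ckb, Slc6a8, Ampd1, Ak1 and Mb, out of 15643 genes named in the peak tables. Their peaks were all regions that the authors' annotation assigned to 1 of these genes, that is, to the nearest start site, which gave 20 of 46988 control peaks and 17 of 40721 detrained peaks. All 7 genes had at least 1 peak in each list. The quadriceps muscle came from wild type male C57BL/6 mice (C57BL/6J in the study's methods), which were placed at 8 weeks of age in individual cages for 4 weeks. Control mice had no running wheel. Detrained mice had free access to a wheel and were harvested 72 h after their last bout of running. Each group had 2 H3K27ac libraries, each from a single quadriceps, and 1 input library. The control libraries are called C2 and C3 and the detrained libraries Ex1 and Ex2, as in the tables.

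H3K27ac is an acetyl mark on histone H3 that is found at active promoters and enhancers. Muscle keeps its ATP level steady during contraction with the phosphagen system, in which creatine kinases move a phosphate between ATP and creatine. Adenylate kinase and AMP deaminase deal with the ADP and AMP that contraction leaves, and myoglobin stores oxygen and carries it to mitochondria. The creatine transporter SLC6A8 brings creatine into the fibre. CKM and CKB are the muscle and brain forms of the cytosolic enzyme, and CKMT2 is the sarcomeric mitochondrial form.

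Over all peaks of a gene, none of the 7 genes differed between the groups in the same way by summed tags and by tags per kb. With tags summed over all peaks of a gene, Mb was higher and Ckb lower in both detrained libraries than in both control libraries, by log2 ratios of 0.37 and -0.29. Per kb of called peak, the Mb groups overlapped, the Ckb groups lay the other way round, and Ak1 was lower in both detrained libraries. The Ak1 groups overlapped once a detrained peak was left out whose control partner is named for another gene. Ckm, Ckmt2, Slc6a8 and Ampd1 overlapped between the groups on both scales. Over its main run of overlapping peaks, a comparison added after seeing the data, Ckb was lower in both detrained libraries on both scales. The log2 ratio was -0.14, and C3 and Ex2 differed there by less than the counting error.

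The sequences just upstream of the start sites are shown because the peaks of Ckm, Ckmt2, Ak1 and Mb lie over them, whereas that of Ckb is covered in part in control and not at all in detrained mice. They are the 250 bases before a start site, read 5′ to 3′ on the strand of the gene, taken from RefSeq promoters of build GRCm38.p6 (mm10). Of the 7 genes, 5 matched the promoter table, and Slc6a8 and Ampd1 did not. For Ak1, which has 4 promoters in the table, and Mb, which has 3, 1 promoter each is shown. Capitals mark the motifs searched on both strands. These were 2 E-boxes bound by myogenic factors, spelled CAGCTG and, in a second form, CACCTG. The others were the TATA box TATAAA, the M-CAT element CATTCC, the GC box GGGCGG, the nuclear receptor element AAGGTCA, and the MEF2 core and the consensus MEF2 site, given by name. The core opens with CTA and closes with TAG, with any 4 bases between. CACCTG and the MEF2 site were added after the sequences had been seen.

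Ckm, chr7:19410844-19411093, plus strand: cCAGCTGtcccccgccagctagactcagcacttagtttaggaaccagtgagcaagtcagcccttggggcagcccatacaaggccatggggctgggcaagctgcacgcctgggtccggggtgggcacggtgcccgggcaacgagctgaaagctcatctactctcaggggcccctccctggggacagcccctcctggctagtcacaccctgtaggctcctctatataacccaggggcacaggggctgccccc
Ckmt2, chr13:91876886-91877135, minus strand: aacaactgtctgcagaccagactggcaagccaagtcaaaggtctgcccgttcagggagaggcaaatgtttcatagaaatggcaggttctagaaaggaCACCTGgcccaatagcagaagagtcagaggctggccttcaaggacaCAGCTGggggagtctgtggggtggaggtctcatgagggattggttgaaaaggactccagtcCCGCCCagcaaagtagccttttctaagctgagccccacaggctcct
Ckb, chr12:111672339-111672588, minus strand: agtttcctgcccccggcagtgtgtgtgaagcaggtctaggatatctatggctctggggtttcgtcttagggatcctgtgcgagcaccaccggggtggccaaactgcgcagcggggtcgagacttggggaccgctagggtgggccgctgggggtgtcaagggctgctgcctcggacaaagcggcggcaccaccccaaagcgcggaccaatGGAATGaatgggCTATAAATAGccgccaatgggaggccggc
Ak1, chr2:32628140-32628389, plus strand: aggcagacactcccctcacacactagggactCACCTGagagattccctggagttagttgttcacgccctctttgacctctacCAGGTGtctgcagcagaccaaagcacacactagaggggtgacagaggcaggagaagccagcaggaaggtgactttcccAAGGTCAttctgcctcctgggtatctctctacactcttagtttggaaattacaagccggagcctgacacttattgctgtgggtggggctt
Mb, chr15:77022728-77022977, minus strand: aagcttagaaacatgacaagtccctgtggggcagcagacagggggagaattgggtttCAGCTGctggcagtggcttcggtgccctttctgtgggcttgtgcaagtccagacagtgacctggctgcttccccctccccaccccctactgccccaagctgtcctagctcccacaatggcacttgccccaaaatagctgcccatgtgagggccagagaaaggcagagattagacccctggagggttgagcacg

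The Ckm, Ckmt2, Ak1 and Mb stretches lay wholly inside a peak in both lists. The Ckb stretch lay 50% inside a control peak and 0% inside a detrained peak. CAGCTG was present in the Ckm stretch with its first base at position -249 from the start site, in the Ckmt2 stretch at -107 and in the Mb stretch at -193. It occurs in 13.0% of the 250-base stretches of all 32851 promoters of the table. The Ckb stretch held a MEF2 core at -29 that overlaps the TATA box at -28, and an M-CAT element at -41. These motifs occur in 3.20%, 12.4% and 12.6% of promoters, respectively. The Ckmt2 stretch also held a GC box at -46 and CACCTG at -153, motifs of 32.7% and 17.2% of promoters. The Ak1 stretch held the nuclear receptor element at -90, a motif of 4.08% of promoters, and CACCTG at -219 and -168. CAGCTG was absent from the Ak1 stretch shown, but present in 2 other Ak1 promoters at -177 and -227 from their own start sites, both wholly inside a peak in each list.

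A stretch farther upstream of Ckm is shown because the muscle enhancer known from classical work on this gene lies upstream of the promoter and both Ckm peaks covered it wholly. The stretch of 300 bases was read from the mm10 genome.

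Ckm upstream, chr7:19409794-19410093, plus strand: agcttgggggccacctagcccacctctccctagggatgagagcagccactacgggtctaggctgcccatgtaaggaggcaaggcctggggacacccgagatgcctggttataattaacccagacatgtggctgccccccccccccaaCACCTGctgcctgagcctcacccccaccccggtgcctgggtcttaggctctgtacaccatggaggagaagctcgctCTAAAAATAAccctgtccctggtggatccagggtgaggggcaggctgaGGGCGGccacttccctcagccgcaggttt

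It held CACCTG at position -1153, a MEF2 site at -1077 and a GC box at -1029 from the start site. In 300-base promoter windows these occur in 20.2%, 1.86% and 35.7% of the table. A match of letters is a description of the sequence and shows no binding.

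The 4 H3K27ac libraries held between 20805019 and 22400894 tags, of which 44.7% to 49.4% lay in the listed peaks, and the input libraries were of 10812470 tags (control) and 21298438 tags (detrained). Peaks of fast skeletal fibre markers were present for 7 of 8 genes, the exception being Tnnt3, with summed levels of 5419 and 6895 tags per 10000000 in control and 6867 and 6549 in detrained libraries. Of the heart markers Myh6 and Nppa had no peak, and Myl4 had 2 in control and 1 in detrained mice, with 35.6 and 30.3 tags in control and 15.4 and 19.3 in detrained libraries. Of the slow fibre markers Myh7 and Tnnc1 had no peak, Tnni1 had 1 in control mice alone (50.8 and 60.2 tags) and Tnnt1 had 1 in detrained mice alone (34.0 and 42.7 tags). Of the brain markers Gfap and Syn1 had no peak, and Snap25 had 3 in each list, with 313 and 328 tags in control and 293 and 330 in detrained libraries. The tables were normalised separately and an exact permutation test of 2 against 2 libraries cannot give a two-sided p below 0.333, so no test was made between groups. Each library is a separate mouse, and the spread given is between mice.

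All levels below are tags in called peaks per 10000000 total tags of the library, estimated by sharing out the authors' pooled tags between the libraries of a group, and levels per kb are those tags divided by the length of the called peaks. The regularized values behind the sharing are shrunken, which narrows the difference between libraries at weak peaks. Ratios are on a log2 scale with 0.5 tags added. Counting error alone, as the square root of the estimated tags, ranged from 1.75% of the Ampd1 peak in C3 to 23.5% of the weakest Ckb peak in C3. Groups are said not to overlap when the lower value of one group exceeded the higher value of the other. Values are given in the order C2, C3, Ex1 and Ex2.

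**Figure D1:**
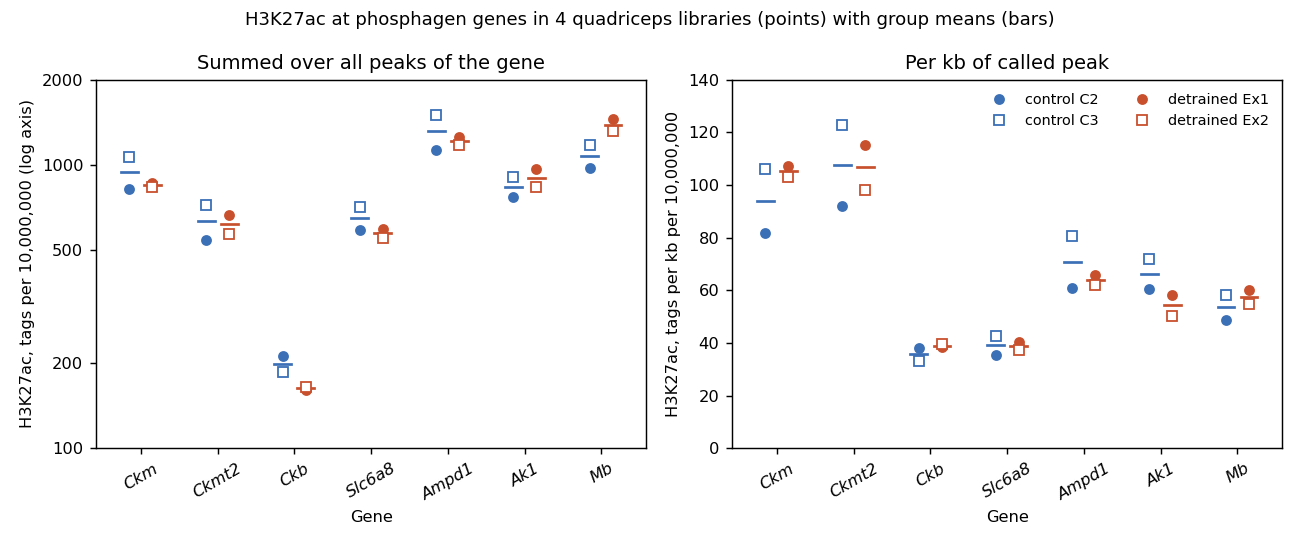
H3K27ac at the 7 genes in each library, as tags per 10,000,000 summed over all peaks of the gene (left, log axis) and as tags per kb of called peak (right). Points are libraries and bars are group means. On the left the Mb points of the detrained libraries, 1451 and 1319, lie above both control points, and on the right the groups overlap for Mb.

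By their ranges over the 4 libraries of both groups, the genes fell into 3 steps per kb. Ckmt2 had a mean over the 4 libraries of 107 ± 14.3 tags per kb and Ckm of 99.5 ± 11.9 (SD, n = 4), and their ranges overlapped. Ampd1 followed with 67.3 ± 9.06, Ak1 with 60.2 ± 8.86 and Mb with 55.4 ± 5.05 tags per kb, with the range of each overlapping the next. Within every library, however, Ampd1 was above Ak1, by as little as 60.8 against 60.7 in C2, and above Mb. Slc6a8 with 39.0 ± 3.26 and Ckb with 37.3 ± 2.72 tags per kb were lowest and overlapped each other. The lowest Ckm library, C2 at 81.8 tags per kb, lay above the highest Ampd1 library, C3 at 80.5. That difference is smaller than the counting error of 2.33% of the Ckm peak in C2. Within every library Ckm was above Ampd1. The lowest Mb library, at 48.7, lay above the highest Slc6a8 library, at 42.7. These densities average all peaks named for a gene, also weak and distant ones and those of Slc6a8 in a neighbouring gene. The main Mb peak alone held 63.2 to 76.2 tags per kb, and the Slc6a8 peak over its start site 47.6 to 50.9. The order therefore depends on which peaks carry the name of a gene. By summed tags, which grow with the length called, Ampd1 ranked 635 and Mb 682 of the 13524 genes with peaks in both lists, whereas Ckb ranked 6662.

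Slc6a8 encodes the plasma membrane transporter through which muscle takes up creatine made elsewhere. The peak over its start site on chromosome X (73672099 to 73676248 in control, 73672123 to 73675980 in detrained) was centred in intron 1. It held 48.6 and 50.9 tags per kb in control muscle, against 50.2 and 47.6 in detrained muscle, so the groups overlapped, with a log2 ratio of -0.02. Without peak length it held 201 and 211 tags in control muscle, against 194 and 183 in detrained muscle, a log2 ratio of -0.13 at which the groups did not overlap. On that scale the groups did not overlap at 53.4% of the 26422 peaks shared between the lists. This peak stood far above its input, by 4.33 on the log2 scale in control, which is the 99.97 percentile of the control peaks, and by 3.48 in detrained mice. Each value rests on 1 input library.

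A weak peak at the 3′ end of Slc6a8 (73681986 to 73683833 in control, 73681519 to 73683350 in detrained) held 12.5 and 19.7 tags per kb in control muscle, against 13.8 and 12.6 in detrained muscle. C3 stood above the other libraries there, and the groups overlapped, with a log2 ratio of -0.25. The remaining peaks named for Slc6a8 lay not in this gene but in the neighbouring gene Bcap31. Control mice had 1 such peak of 10643 bp, and detrained mice had 2 peaks of together 9044 bp with a gap of 1160 bp between them. They held 34.2 and 43.6 tags per kb in control and 41.6 and 38.1 in detrained libraries, with overlapping groups. Summed over all its peaks, Slc6a8 had 588 and 711 tags in control muscle, against 596 and 551 in detrained muscle, and most of this came from the Bcap31 peaks. The log2 ratio was -0.18 by sum, against a spread within groups of 0.15, and 1.12e-05 per kb.

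Ckm, which encodes the cytosolic creatine kinase of muscle, had a single peak in each list. It ran from position -3397 to 6664 relative to the start site in control (chr7:19407697-19417758) and from -3471 to 4613 in detrained mice (chr7:19407623-19415707). It held 823 and 1066 tags in control muscle, against 866 and 835 in detrained muscle, so that both detrained libraries fell between the control libraries. The log2 ratio was -0.14 with a spread within groups of 0.19. The called length was 10061 bp in control against 8084 bp in detrained muscle, and per kb the levels were 81.8, 105.9, 107.1 and 103.2, with a log2 ratio of 0.18. The direction thus turned with the length, and the groups overlapped on both scales. The peak ranked at the 99.4 percentile of control peaks by tags and the 99.2 percentile of detrained peaks.

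Ckb, the brain-type cytosolic enzyme, is known from brain and from many other tissues. In control mice it had 4 peaks and in detrained mice 1. The main control peak (chr12:111667638-111670643) covered the 3′ end of the gene and held 157.6 tags in C2 and 134.9 in C3. A weaker control peak over the start site (chr12:111671303-111672463) held 35.9 and 31.0 tags. The detrained peak (chr12:111667923-111672100) spanned the gap of 660 bp between these peaks and reached to 238 bases downstream of the start site.

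Over this run of overlapping peaks the called length was almost equal, 4165 bp in control against 4177 bp in detrained muscle. It held 46.5 and 39.8 tags per kb in control muscle, against 38.5 and 39.4 in detrained muscle, a log2 ratio of -0.14. By tags it held 193 and 166 in control and 161 and 165 in detrained libraries, also a log2 ratio of -0.14. On each scale both detrained values were below both control values. C3 and Ex2, at 39.8 and 39.4 per kb, differed by less than the counting error, which was 5.21% for the detrained peak in Ex2. The other control peaks of Ckb were intergenic, 6623 and 7991 bp downstream of the start site, held at most 11.7 tags and overlapped no detrained peak. Summed over all peaks, Ckb had 212 and 186 tags in control and 161 and 165 in detrained libraries, and the groups did not overlap. Of all genes, 35.2% were lower in both detrained libraries by this measure. Per kb of all called peaks the order turned, with 38.0 and 33.3 tags per kb in control and 38.5 and 39.4 in detrained libraries. By that measure 25.5% of all genes were higher in both detrained libraries.

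Ckmt2, whose product sits in the intermembrane space of muscle mitochondria, had the highest mean density of the 7 genes over the 4 libraries, although in Ex2 Ckm was denser, at 103.2 against 98.3 tags per kb. Its single peak was almost the same in both lists (chr13:91873394-91879285 in control and chr13:91873582-91879374 in detrained). It held 543 and 723 tags in control muscle, against 667 and 569 in detrained muscle. Both detrained libraries lay between the control libraries. The log2 ratio was -0.02 by sum and 0.00067 per kb, against a spread within groups of 0.24, which was the widest of the 7 genes.

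**Figure D2:**
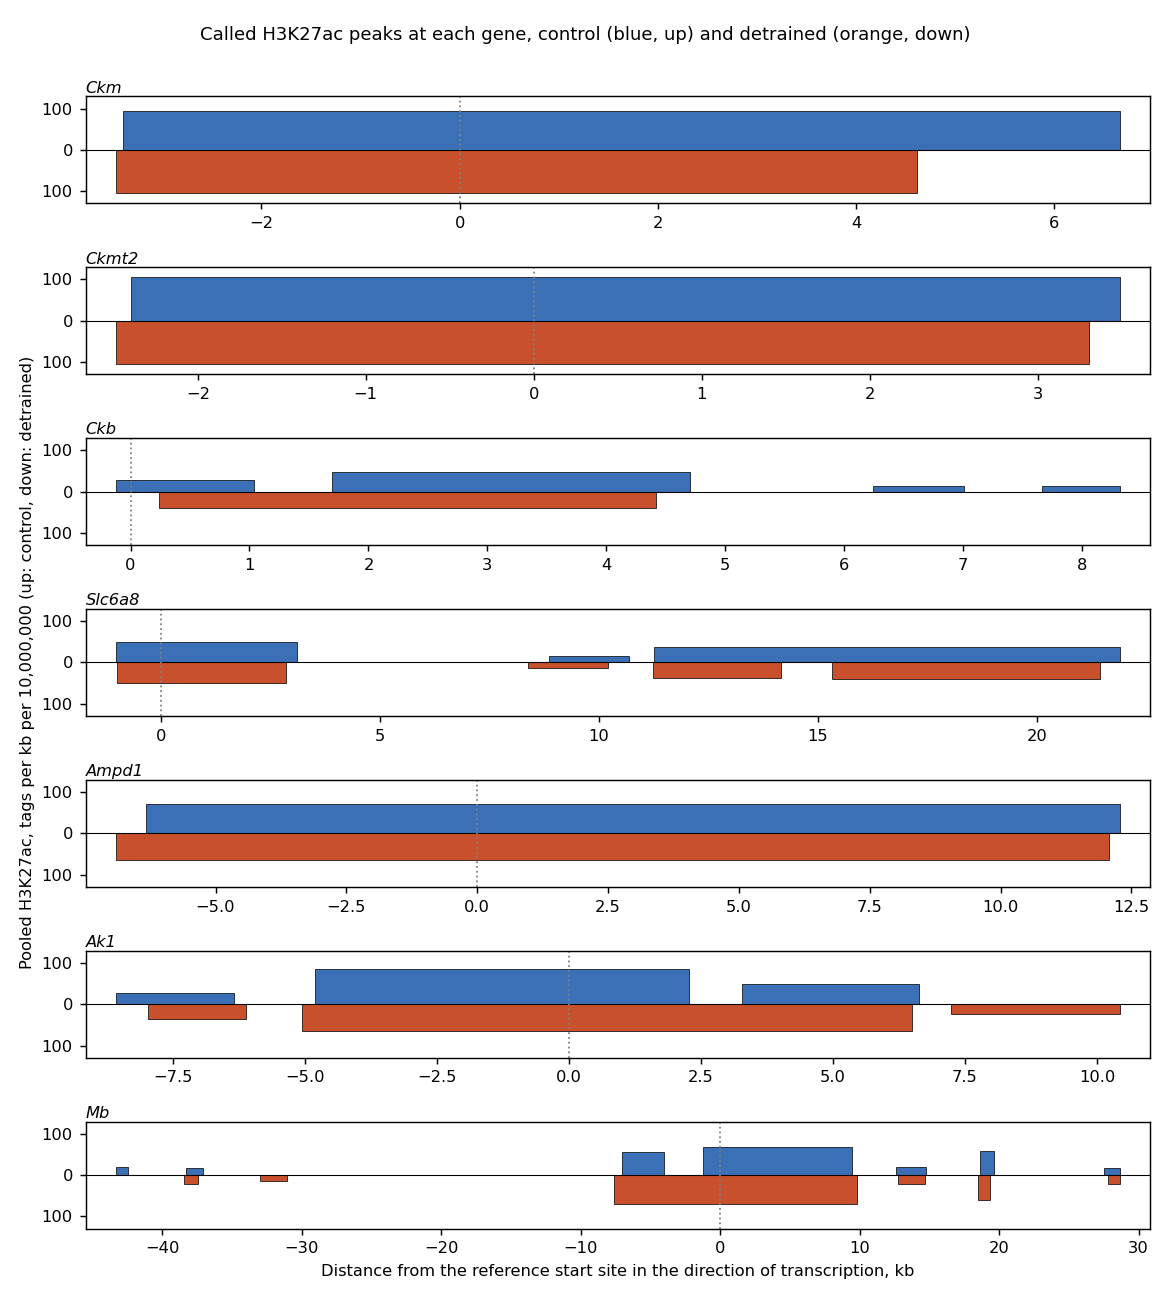
Called peaks of each gene, drawn against distance in kb from the start site of the strongest control peak, with the direction of transcription to the right. Bar height is the pooled tags per kb of both libraries of a group, control upwards and detrained downwards. At Ckb, Ak1 and Mb 1 detrained peak spans 2 control peaks, and at Slc6a8 1 control peak spans 2 detrained peaks.

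Ak1 encodes the cytosolic adenylate kinase, which turns ADP into ATP and AMP. Its strongest peak lay over several start sites of the gene and was 7066 bp long in control (chr2:32623588-32630654) against 11552 bp in detrained muscle (chr2:32623328-32634880). The detrained peak took in a second control peak of 3352 bp, over exon 5, and the gap of 1016 bp between them. Paired with the first control peak alone, the density was 79.9 and 93.1 tags per kb in control and 69.6 and 61.7 in detrained libraries, a log2 ratio of -0.40. Over the whole run the values were 68.2 and 80.3 in control and 69.6 and 61.7 in detrained libraries, a log2 ratio of -0.18, and the groups overlapped.

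A peak upstream (chr2:32619803-32622048 in control) lay over another Ak1 start site and reached into St6galnac6. It held 25.7 and 31.9 tags per kb in control and 45.2 and 28.3 in detrained libraries, so Ex1 stood above the other libraries. A detrained peak of 3201 bp beyond the end of the gene was named Ak1, while the control peak that it overlapped was named Eng, after the neighbouring gene for endoglin. Summed over all peaks named Ak1, the levels were 768 and 909 in control muscle, against 966 and 836 in detrained muscle, which overlapped. Per kb they were 60.7 and 71.8 in control and 58.1 and 50.3 in detrained libraries, which did not overlap, with a log2 ratio of -0.29. Of all genes, 28.1% were lower in both detrained libraries per kb. Without the detrained peak whose control partner is named Eng, an alternative added after the values were seen, the detrained libraries had 66.2 and 57.1 tags per kb, the log2 ratio was -0.10 and the groups overlapped.

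Ampd1, the AMP deaminase of muscle that starts the purine nucleotide cycle, had the longest peak of the 7 genes. It covered 18608 bp in control (chr3:103067690-103086298) against 18986 bp in detrained muscle (chr3:103067106-103086092), longer than 99.8% of the peaks of either list. It held 1131 and 1498 tags in control muscle, against 1251 and 1177 in detrained muscle, with both detrained libraries between the control libraries. The log2 ratio was -0.10 by sum and -0.13 per kb, against a spread within groups of 0.21. The peak overlaps the neighbouring gene Nras as well as Ampd1, and tags cannot be assigned to either gene.

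Mb, the gene of myoglobin, had 7 control and 6 detrained peaks over a wide region of chromosome 15. Its main peak over the gene ran from 77013286 to 77023934 in control mice, and a second control peak from 77026782 to 77029804 lay in intron 1. In detrained mice 1 peak of 17456 bp (77012891 to 77030347) took in both and the gap of 2848 bp between them. Together the control peaks covered 13670 bp. Over this run the tags were 825 and 1004 in control muscle, against 1295 and 1156 in detrained muscle, higher in both detrained libraries, with a log2 ratio of 0.43. Per kb they were 60.4, 73.5, 74.2 and 66.2, so the groups overlapped, with a log2 ratio of 0.07.

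Summed over all its peaks, Mb had 980 and 1172 tags in control muscle (1076 ± 136, SD, n = 2), against 1451 and 1319 in detrained muscle (1385 ± 93.4, SD, n = 2). Both detrained libraries exceeded both control libraries, as was the case for 24.3% of all genes, with a log2 ratio of 0.37 that fell to 0.24 without C2. The covered length was 20123 bp in control against 24119 bp in detrained muscle. Per kb the levels were 48.7 and 58.2 in control and 60.2 and 54.7 in detrained libraries, a log2 ratio of 0.11 with overlapping groups.

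The distal Mb peaks were weak. The 5 other peaks of the control list held between 17.7 and 68.1 tags per library. The strongest, centred 19105 bp from the start site on the 3′ side (chr15:77003125-77004120), had 47.8 and 68.4 tags per kb in control and 56.8 and 64.3 in detrained libraries, which overlapped. The most distant on that side (chr15:76994090-76995242) had 19.2 and 16.5 in control and 19.4 and 22.03 in detrained libraries, which did not overlap, although the difference between C2 and Ex1 was far within counting error. A detrained peak in intron 4 of the neighbouring gene Apol6 and a control peak at chr15:77065177-77066075 had no partner in the other list. The 250 bases before the most upstream Mb start site, at 77050668, lay in no peak of either list.

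Macrophage and fibroblast markers, and the fast fibre markers Myh4 and Myh1, moved with the summed level of Mb. Of the 4 macrophage markers 3 had a peak in control and 4 in detrained mice, with summed levels of 168 and 133 in control and 293 and 239 in detrained libraries over 6924 and 12675 bp. All 3 fibroblast markers had peaks, with 1623 and 1519 in control and 2115 and 2035 in detrained libraries over 47811 and 61859 bp. Per kb both lists, summed, overlapped between the groups, at 19.2 to 24.2 in control and 18.9 to 23.1 in detrained libraries for macrophage markers. The fibroblast markers differed singly. Pdgfra and Col3a1 were higher in both detrained libraries on both scales, with log2 ratios per kb of 0.26 and 0.10. Col1a1 was higher by sum and lower per kb, at -0.13. Of all genes, 25.5% were higher and 28.1% lower in both detrained libraries per kb. Myh4, the fast myosin heavy chain of type IIb fibres, had 75.1 and 83.5 tags in control and 814 and 788 in detrained libraries. These lay in 3 control peaks over 3764 bp and 1 detrained peak over 10265 bp, so unlike regions may be compared. Myh4 was higher per kb too, with a log2 ratio of 1.89, while the highest of all 26422 shared pairs was 1.16. Whether control peaks at this locus carry the name of another gene was not examined. The paper shows H3K27ac along Myh4 in untrained quadriceps. Myh1 had 361 and 442 tags in control and 570 and 492 in detrained libraries, and its groups overlapped per kb. Of the other 5 fast fibre markers with peaks, Pvalb was lower in both detrained libraries by sum and 4 overlapped. Per kb Actn3 and Mylpf were lower in both detrained libraries, with log2 ratios of -0.54 and -0.18, Atp2a1 was higher, with 0.35, and Acta1 and Pvalb overlapped. The part of these cells and fibres in the Mb values was not tested. In whole muscle, fewer cells of a type and less signal per cell cannot be told apart.

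Peaks of the 7 genes that overlapped uniquely between the lists, with at least 50% of each peak covered, numbered 14 of 26422 such pairs. The median log2 ratio per kb was 0.05 over the 14 pairs, with 9 ratios above 0 and 5 below, and -0.03 over all pairs, with 12152 above and 14270 below. Without peak length the tally of the 14 pairs turned to 4 above and 10 below, with a median of -0.091, and over all pairs it was 12449 and 13973. Per kb the range was from -0.40 at the main Ak1 peak to 0.32 at the upstream Ak1 peak. The groups did not overlap at 3 of the 14 pairs, against 48.5% of all pairs. With a single library in a group this number was 11 without C2, 12 without C3, 5 without Ex1 and 6 without Ex2. Of all pairs, 76.0%, 75.7%, 72.2% and 73.1% did not overlap in these settings. A single library leaves less spread to overlap, at all pairs as at these 14. Per kb, the Mb pair farthest downstream was higher in both detrained libraries, as were 21.3% of all pairs. Its detrained peak was shorter, 892 against 1152 bp, and without peak length its log2 ratio was -0.15 with overlapping groups. The main Ckb and Ak1 pairs were lower per kb, as were 27.2% of all pairs. Both of the lower pairs set a longer detrained peak against a shorter control peak. None of the 14 pairs also reached a 1.5-fold difference, against 3.16% of all pairs.

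**Figure D3:**
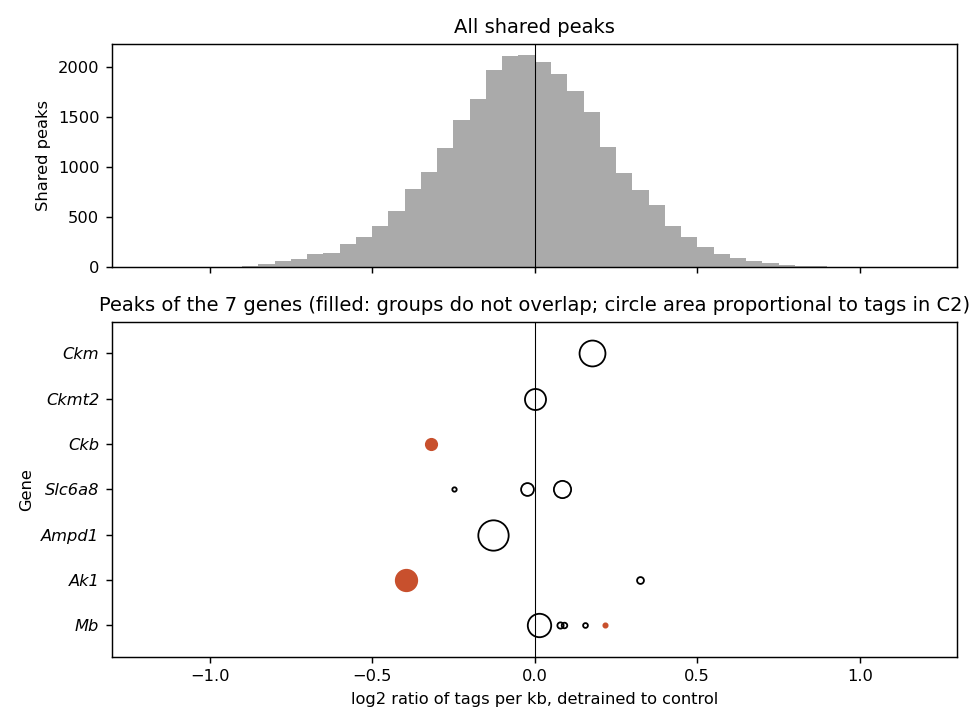
The log2 ratio of tags per kb, detrained to control, over all 26422 shared peaks (top, number of peaks in bins of 0.05) and at the 14 pairs of the 7 genes (bottom, circle area by tags in C2). Filled circles, at Ckb, Ak1 and Mb, are the 3 pairs whose groups do not overlap, and all 14 circles lie between -0.40 and 0.32.

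At 5 of the 7 genes, Mb and Ckb being the exceptions, the control libraries differed from each other by more than the group means did in summed tags. C3 was higher than C2 at 6 of the 7 genes, by 0.41 on the log2 scale at Ampd1 and Ckmt2, 0.37 at Ckm, 0.27 at Slc6a8, 0.26 at Mb and 0.24 at Ak1. Ckb lay the other way, at -0.19. At the 14 pairs C3 was higher at 11, with a median of 0.29, while over all pairs C3 was higher at 61.3%, with a median of 0.07. Within the detrained group Ex2 was below Ex1 at 10 of the 14 pairs, with a median of -0.11, and at 62.2% of all pairs. The fast fibre markers, summed, were also higher in C3 than in C2, by 0.35, as were those of adipocytes by 0.64, slow fibres by 0.25, endothelium by 0.22, brain by 0.07 and smooth muscle by 0.06. The macrophage markers were lower, at -0.34, as were those of heart, at -0.23, and of fibroblasts, at -0.10. The adipocyte, slow fibre, brain and heart values each rest on 1 gene with a control peak, namely Fabp4, Tnni1, Snap25 and Myl4. The adipocyte markers Adipoq and Plin1 had no peak in either list.

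**Figure D4:**
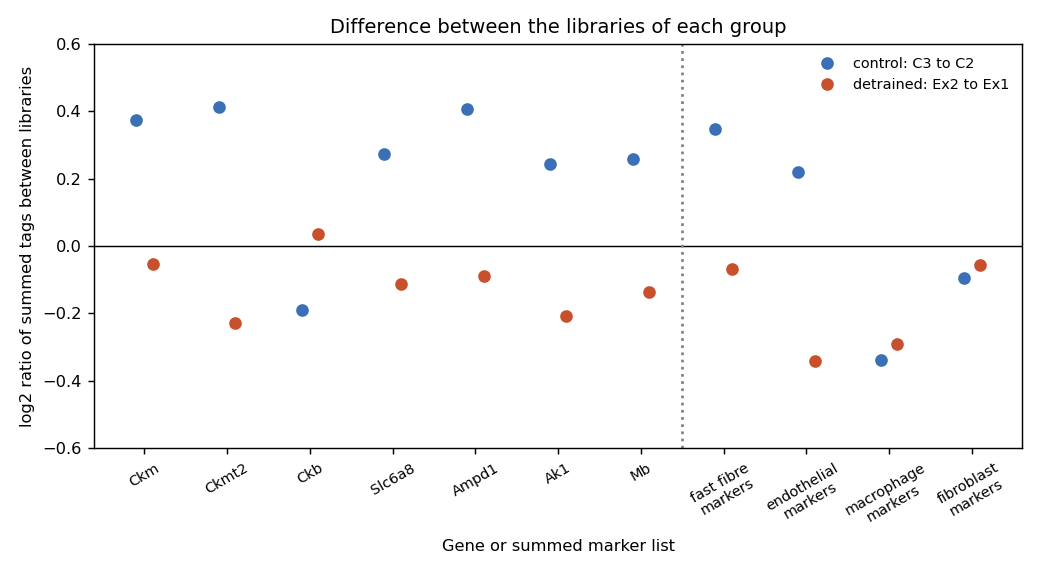
The log2 ratio of summed tags between the libraries of a group, C3 to C2 in control and Ex2 to Ex1 in detrained mice, at the 7 genes and for 4 summed marker lists. C3 exceeds C2 at every gene except Ckb, by up to 0.41, and Ex2 is below Ex1 at every gene except Ckb.

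The peaks of the 7 genes were found in both lists more often than not. A detrained peak overlapped 17 of the 20 control peaks (85.0%, where the share was 72.1% over the whole control list). A control peak overlapped 16 of the 17 detrained peaks (94.1%, where the share was 82.0% over the whole detrained list). Long peaks were common among them. In control 4 of 20 were at least 10000 bp long, against 1.40% of all control peaks, and in detrained mice 3 of 17 were, against 1.57%. Of the 17 detrained peaks, 3 took in more than 1 control peak, against 4.76% of all detrained peaks, and 1 control peak took in more than 1 detrained peak, against 3.20% of all control peaks. Their median level over input was 2.85 on the log2 scale in control and 2.91 in detrained mice, and 2.25 and 2.20 over all peaks.

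Other genes of creatine, adenylate and purine nucleotide metabolism were taken from a list of 28, of which 18 had peaks in both lists, 6 had none, 3 had peaks in control mice alone (Gatm, Ak3 and Ak4) and 1 in detrained mice alone (Ampd2). By summed tags 4 of the 18 were higher and 5 lower in both detrained libraries than in both control libraries, where 24.3% and 35.2% of all genes were, with a median log2 ratio of 0.01, and -0.05 over all genes. Per kb 5 were higher and 4 lower, where 25.5% and 28.1% of all genes were, with a median of 0.04, and -0.01 over all genes. Ada was higher and Adk and Nt5e lower on both scales (Nt5e was named after its values were seen), whereas Adss and Adsl were lower by sum and higher per kb. The highest summed levels were those of Vdac1, a channel of the outer mitochondrial membrane, with 1915, 2507, 2134 and 2171 tags in C2, C3, Ex1 and Ex2, of Adssl1, the muscle adenylosuccinate synthase of the purine nucleotide cycle, with 1778, 2332, 2135 and 1969, and of Ampd3, the AMP deaminase known from red blood cells, with 1384, 1315, 1533 and 1416. At Vdac1 and Adssl1, as at Ampd1, C3 was the highest library.

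Among the largest log2 ratios by sum in the list were 1.11 at Ada (adenosine deaminase) and 0.26 at Nt5c2 (a cytosolic nucleotidase). Their called lengths also differed, from 3849 bp in control to 7370 bp in detrained mice at Ada and from 19769 to 22118 bp at Nt5c2. Per kb the ratios were 0.17 and 0.10. The smallest were -0.68 at Adk (adenosine kinase), -0.45 at Adsl (adenylosuccinate lyase) and -0.43 at Adss, over lengths of 22369 and 15538, 12254 and 5865, and 4474 and 2540 bp. Per kb they were -0.16, 0.61 and 0.39. Adk had 43.8 and 48.3 tags per kb in control muscle, against 41.1 and 41.4 in detrained muscle, and Ada 14.8 and 14.7, against 17.6 and 15.8.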

How the data were processed

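The peak tables were used, of H3K27ac in control and in detrained quadriceps. For these the authors mapped reads with Bowtie to mm10, called peaks with HOMER over both H3K27ac libraries of a group against its input, and named each peak for the nearest start site. Naming can differ between lists for the same region. The deposited signal of a peak is the pooled tags of both libraries per 10000000. For each library the deposited log2 values are regularized values of the authors, made within each table and shrunken for weak peaks. The deposited fold over input, on a log2 scale, and its adjusted p-value were used only to filter peaks in an alternative. Peak lengths and distances, in bp, are the authors' as deposited. The control columns are named C2 and C3 while the labels number the mice otherwise, so these were assigned to the group.

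The pooled tags of each peak were shared out between its libraries in proportion to total tags times 2 to the power of the log2 value. Peaks were paired when each overlapped the other uniquely with at least 50% covered. The pathway genes named were those with the 3 highest summed levels and the 3 largest and 3 smallest ratios, and for Ckm and Mb the 3 genes nearest in level over the 4 libraries. A gene that this rule names is not reported here. The 7 genes and the lists were chosen with earlier results of these data known. Sharing, pairing and calls were tested on simulated data with matching peaks of equal length and counting noise alone. Shrunken values, split or merged peaks and differences between mice were not simulated, so the test does not cover them. Alternatives covered scaling, peak length, overlap, pseudocount, stricter peaks and leaving out a library. The software was Python 3.11.15 with pandas 2.3.3, numpy 2.4.6 and scipy 1.17.1, and plots were made with matplotlib 3.10.9.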

Additional observations from a re-analysis of the deposited data

How the results depend on the processing

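The median log2 ratio over the 7 genes was -0.10 by sum and lay between -0.23 without C2 and 0.10 without C3, so its sign rested on which control library was kept. The Ckb ratio of summed tags, -0.29, turned to 0.13 per kb, to 0.16 with shared peaks alone and to 0.16 with only strict peaks (adjusted p under 0.001 and 4-fold or more over input). Without peak length, the strongest Ckb pair turned to 0.16 and the strongest Ak1 pair to 0.31, the strongest Slc6a8 pair moved from 0.084 to -0.72 and the strongest Mb pair from 0.014 to 0.73. That Slc6a8 pair sets 1 of 2 detrained peaks against the control peak that spans both, and over both the ratio of tags was -0.19. The Mb pair sets the detrained peak against 1 of the 2 control peaks that it spans, and over both the ratio was 0.43. With shared peaks alone the summed Slc6a8 ratio moved from -0.18 to -0.48. The median over the 14 pairs, 0.05, was -0.091 without peak length and lay between -0.11 without C2 and 0.13 without C3, with -0.066 without Ex1. The number of pairs whose groups did not overlap, 3, was 5 without peak length, 1 of 10 pairs with any overlap and 0 of 4 pairs with at least 80% covered, where 53.4%, 49.0% and 40.2% of all pairs did not overlap. It was between 5 and 12 with a library left out, where 72.2% to 76.0% of all pairs did not overlap. Scaling to tags in peaks left this number at 3 and turned the summed ratio of Ckmt2 from -0.02 to 0.03, with the other 6 ratios keeping their sign. With a pseudocount of 5 tags all 7 kept their sign and the number was 3. The Mb ratio of summed tags was positive in every setting, from 0.07 per kb of the main run of peaks to 0.62 with shared peaks alone, which leave out the second control peak of that run. The comparison over the run of overlapping peaks, and that without the Ak1 peak whose partner is named for another gene, were added after seeing the data. Leaving out that peak moved the Ak1 ratio per kb from -0.29 to -0.10 and left the median over the 7 genes at 0.00067 per kb and -0.10 by sum. No paired analysis was possible because numbers in the control headers differ from those of the labels, so the replicate block was not run. The counting error of weak peaks, up to 23.5%, limits the distal Ckb and Mb values.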

Other observations

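The 3 genes whose summed levels over the 4 libraries lay nearest to those of Ckm, by Euclidean distance on the log2 scale, were Ncf4 (0.04), Ephb1 (0.05) and Prkab1 (0.08). Those nearest to Mb were Nudt4 (0.15), Nxn (0.15) and Glul (0.16). Ncf4 had 813, 1045, 870 and 826 tags per 10000000 in C2, C3, Ex1 and Ex2, and Nudt4 1028, 1114, 1526 and 1398. The likeness is of 4 values and carries no statement of shared function.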
